A study of Mus musculus with 8 samples.

Results

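The Src, Syk and Tec kinases of neutrophils are described here through 9 genes, chosen by symbol among the 55414 genes of the count files, of which 52133 had an entry in the GENCODE M21 annotation. They are the Src family kinases Fgr, Lyn and Src, the kinase Syk, the Tec family kinases Btk and Tec, the adhesion-linked kinase Ptk2b (Pyk2), and the negative regulators Csk and Ptpn6 (SHP-1). The choice went by symbol and gene function, but earlier results of these data were known when it was made. The paper on these data names Ptk2b, Syk and Csk among the kinases down-regulated in Cxcr2-/- neutrophils. RNAseq was made from neutrophils of the spleen of 4 WT and 4 Cxcr2-/- mice, 1 library per mouse, to ask how neutrophils that lack the chemokine receptor Cxcr2 differ from those that have it. Both groups were FVB mice, 10 weeks old, housed under specific and opportunistic pathogen free (SOPF) conditions. The Cxcr2-/- mice carried an inherited deletion, backcrossed to FVB, so that every cell type of the animal lacked the receptor and not the neutrophils alone. Cells were enriched for CD11b and then sorted by flow cytometry for CD45, CD11b and Ly6G and against the macrophage marker F4/80.

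In a neutrophil, Src family kinases lie at the inner face of the membrane and phosphorylate tyrosines in the cytoplasmic tails of Fc receptors and of the adaptors that serve integrins and other receptors, such as Fcer1g and Tyrobp. Syk docks on these phosphotyrosines and passes the signal to adaptors and to phospholipase C gamma, which Tec kinases phosphorylate as well, while Ptk2b acts downstream of integrins. Csk phosphorylates a tyrosine near the end of each Src family kinase and thereby closes it, CD45 (Ptprc) and CD148 (Ptprj) remove that phosphate, and Ptpn6 is drawn to inhibitory receptors and reverses phosphorylation.

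The last 48 coding bases of the Src family members, stop codon included, are shown because they hold the site on which Csk acts. They were taken from GENCODE M21 transcripts (GRCm38, reference strain and not FVB) and are written 5′ to 3′ in the sense of the gene. Capitals mark the codon of the last tyrosine, the inhibitory tail tyrosine.
Fgr: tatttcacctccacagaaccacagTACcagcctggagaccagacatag
Src: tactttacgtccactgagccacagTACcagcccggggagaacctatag
Lyn: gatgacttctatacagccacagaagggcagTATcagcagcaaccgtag
In Fgr and Src, 6 codons stood between the tyrosine and the stop codon, and 20 of the 24 bases around the tyrosine codon were identical. In Lyn, 4 codons stood there, and Lyn shared 16 of the 24 bases with Fgr and 13 with Src.

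The activation loop, whose tyrosine is phosphorylated when the kinase is active, is shown for the members of the Src and Tec families. The 45 bases centred on that codon (capitals) come from the same GENCODE M21 transcripts.
Fgr: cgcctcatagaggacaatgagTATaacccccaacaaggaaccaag
Lyn: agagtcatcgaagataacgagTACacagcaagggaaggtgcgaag
Src: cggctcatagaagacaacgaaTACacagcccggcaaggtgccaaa
Btk: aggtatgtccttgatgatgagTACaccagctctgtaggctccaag
Tec: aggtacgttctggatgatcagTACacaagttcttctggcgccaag
Btk and Tec shared 35 of the 45 bases, and either of them shared 20 to 24 with a Src family member. Among the Src family members the number was 26 for Fgr and Lyn, 32 for Fgr and Src and 34 for Lyn and Src.

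Each library held between 34220182 and 46233555 counts on genes. Cxcr2 itself lay between 1719 and 2252 CPM (counts scaled to the depth of the library with the trimmed mean of M values, TMM) in WT and between 12.9 and 20.7 CPM in Cxcr2-/- libraries, as labelled. The share of all counts on the 10 most abundant genes was 9.45 to 11.6% in WT and 17.0 to 19.2% in Cxcr2-/- libraries. Neutrophil markers were high in every library, with a summed level of 35621 to 50893 CPM in WT and 79224 to 99223 CPM in Cxcr2-/-, and 8 of the 10 were higher and 1 was lower in Cxcr2-/- neutrophils. Markers of B cells summed to 75.3 to 162 CPM in WT and 33.2 to 75.3 CPM in Cxcr2-/-, with 7 of 9 lower and none at 0. The monocyte and macrophage markers summed to 704 to 819 CPM in WT and 845 to 972 CPM in Cxcr2-/-, with 2 of 10 lower and 3 higher, and most of the sum was Ly6c2 (239 CPM in WT and 627 CPM in Cxcr2-/-) and Csf1r (442 and 232 CPM). The share of each library that met no gene was 31.4% in WT replicate 1 and 40.02 to 41.5% in WT replicates 2 to 4, against 26.7 to 31.9% for Cxcr2-/- neutrophils. The part of these differences in the results was not tested.

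Syk, Tec, Ptk2b and Csk were lower in Cxcr2-/- than in WT neutrophils, and none of the 9 genes was higher. The reduction was largest for Tec, which fell from 33.2 ± 1.63 to 19.9 ± 1.70 CPM (mean ± SD, n = 4 mice per group), and it was 20.0 to 26.2% of the WT mean for the other 3. Fgr, Lyn, Src, Btk and Ptpn6 did not pass the test. With the quasi-likelihood test of edgeR and p-values adjusted by the Benjamini-Hochberg method over the 16778 genes tested, an adjusted p under 0.05 was thus reached by 4 of 9 members in the lower direction, against 21% of all tested genes, and by 0 of 9 in the higher direction, against 23.7%. In either direction the members' share of 44.4% was near the 44.7% of all genes, so that the number of calls was not particular to them. Their median log2 fold change was -0.32, against 0.01 over all tested genes. The members' shares and this median are not independent of the choice of genes, which was made with earlier results known. With a change of at least 1.5-fold added, 1 member (Tec) was lower, against 15.7% of all genes lower and 31.3% in either direction. The CPM of the groups did not overlap for 4 members (Lyn, Syk, Tec and Ptk2b), against 41.6% of all genes, and all 4 were lower in Cxcr2-/-, against 19.1%. In bulk RNA, fewer cells of a type and less RNA per cell cannot be told apart, and the p-values measure the spread between these mice.

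**Figure D1:**
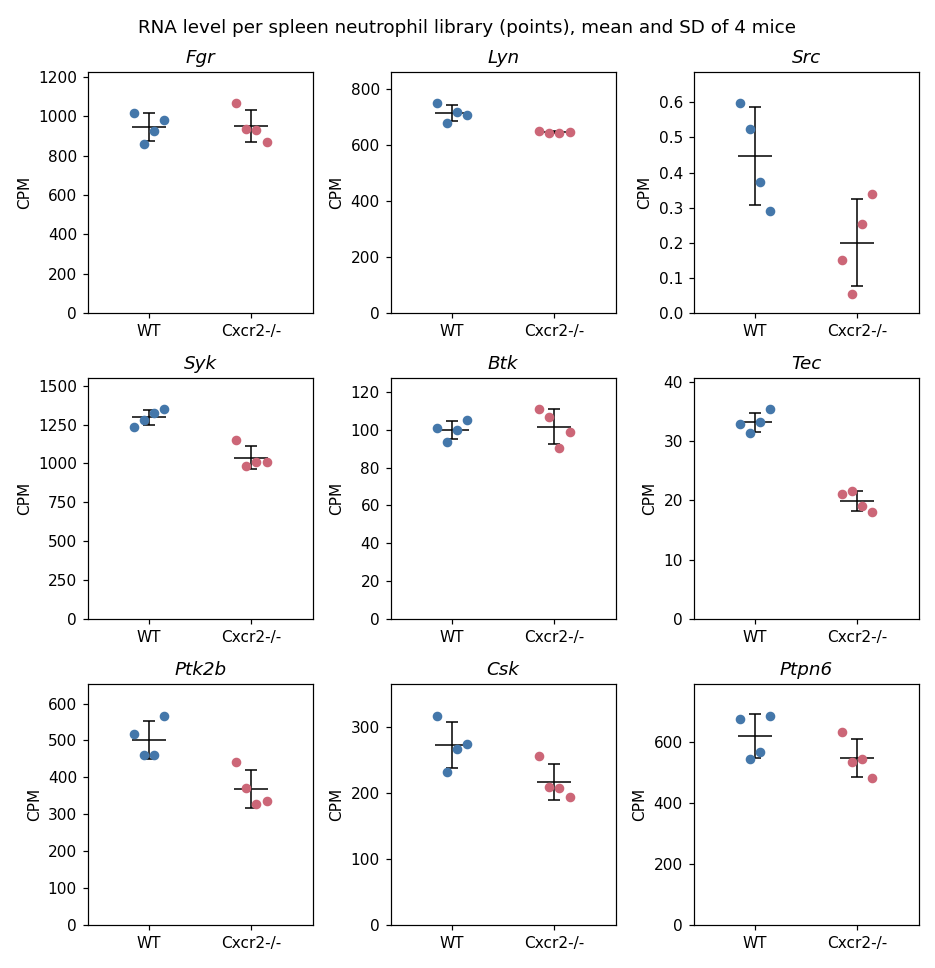
Level of each of the 9 genes in CPM (vertical axis, one panel per gene with its own scale from 0) in the 4 WT and 4 Cxcr2-/- libraries. Points are libraries and bars give the mean and SD. The groups are apart for Lyn, Syk, Tec and Ptk2b, narrowly so for Lyn and Ptk2b, and overlap for the other 5 members.

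Levels of different genes were compared per kilobase of exon (RPKM on the same scaled library sizes). In WT neutrophils the mean RPKM was 245 for Fgr, 221 for Ptpn6, 175 for Lyn, 138 for Syk, 72.9 for Csk, 67.8 for Ptk2b, 31.7 for Btk, 8.86 for Tec and 0.102 for Src. In Cxcr2-/- neutrophils it was 246, 196, 158, 111, 58.0, 49.997, 32.3, 5.33 and 0.0458, in the same order. In both groups the ranges over libraries overlapped for the neighbours Fgr and Ptpn6 and for the neighbours Csk and Ptk2b, which are therefore not placed apart, and all other neighbours were apart. Btk was at a higher RPKM than Tec in both groups, while Bmx, a Tec family kinase outside the 9 genes, was at 50.2 in WT and 41.8 in Cxcr2-/- neutrophils. Of the 3 Src family members the gene Src was at the floor of detection.

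Fgr, on chromosome 4 from 132974095 to 133001910 (GRCm38, plus strand), encodes a Src family kinase found mainly in myeloid cells. It was at 1018, 857, 925 and 979.7 CPM in WT replicates 1 to 4 and at 1065, 935, 929.7 and 869.8 CPM in Cxcr2-/- replicates 1 to 4. The groups overlapped over most of their range. Between the groups the log2 fold change was 0.01, with a 95% interval of -0.22 to 0.24 (edgeR adjusted p = 0.958), and its sign was negative under other scalings. That interval spans levels of 0.859 to 1.18 times the WT level.

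Lyn, on chromosome 4 from 3678115 to 3813122 (plus strand), encodes a Src family kinase with both activating and inhibitory roles. It was at 748, 678, 718 and 708 CPM in the WT libraries and at 649, 642, 643 and 647 CPM in the Cxcr2-/- libraries. Every Cxcr2-/- library was below every WT library, and the Cxcr2-/- libraries lay very close together. The log2 fold change of -0.14 (SE 0.09, 95% interval -0.34 to 0.05) did not pass (edgeR adjusted p = 0.205), while with upper-quartile scaling it was -0.26 (edgeR adjusted p = 0.0245). A noncoding gene on the opposite strand, Gm26857, shares 248 exon bases with Lyn.

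Src, on chromosome 2 from 157418444 to 157471862 (plus strand), is the founding gene of the family. It had 27, 26, 14 and 10 counts in the WT libraries and 6, 2, 10 and 14 counts in the Cxcr2-/- libraries. The groups overlapped, and the SD of the Cxcr2-/- level (0.200 ± 0.124 CPM) was large beside its mean. Its log2 fold change was -1.14 with an interval of -2.21 to -0.08 and did not pass after adjustment (edgeR adjusted p = 0.0769), and without Cxcr2-/- replicate 4 it was -1.53 (edgeR adjusted p = 0.0412). With a covariate for RNA of other cells it was -0.60 (edgeR adjusted p = 0.309), and without Cxcr2-/- replicate 2 it was -0.84 (edgeR adjusted p = 0.177). The 5 megakaryocyte and platelet markers summed to 5.92 to 7.94 CPM in WT and 4.07 to 6.62 CPM in Cxcr2-/- libraries, and of the 2 that were tested, Itga2b was lower (4.58 and 3.09 CPM, edgeR adjusted p = 0.0388) and Gp9 did not pass (2.20 and 1.76 CPM). Of the 3 that were not tested, Pf4 had WT and Cxcr2-/- means of 0.0184 and 0.0250 CPM. Those of Ppbp were 0.0389 and 0.106 CPM, and those of Gp1bb 0.0562 and 0.150 CPM. All 3 were thus higher in the mean of Cxcr2-/-, at no more than 0.329 CPM in any library. The part of such cells in the Src level was not tested, since the covariate pools their markers with those of other cell types.

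Syk, on chromosome 13 from 52583173 to 52648792 (plus strand), encodes the kinase that binds phosphorylated receptor tails. Its level was 1235, 1281, 1323 and 1347 CPM in the WT libraries and 1150.0, 982, 1012 and 1007 CPM in the Cxcr2-/- libraries. The groups did not overlap, and Cxcr2-/- replicate 1 was the nearest to WT. The log2 fold change was -0.32 (95% interval -0.54 to -0.11). The call was lost without WT replicate 4 (log2 fold change -0.30, edgeR adjusted p = 0.0648) and without Cxcr2-/- replicate 2 (-0.29, edgeR adjusted p = 0.0601). The estimate moved little in these fits, which had 1 mouse fewer.

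Ptk2b, on chromosome 14 from 66153257 to 66281052 (minus strand), was at 518, 459.5, 461 and 567 CPM in the WT libraries and at 441, 373, 328 and 337 CPM in the Cxcr2-/- libraries. The lowest WT library lay just above the highest Cxcr2-/- library. The mean fell by 26.2%, and the log2 fold change of -0.44 had an interval of -0.70 to -0.18. It remained called with each library left out in turn, with adjusted p by edgeR of at most 0.0392.

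Tec, on chromosome 5 from 72755716 to 72868483 (minus strand), encodes the kinase after which the family is named. It was at 32.8, 31.4, 33.2 and 35.3 CPM in the WT libraries and at 21.1, 21.6, 19.04 and 18.0 CPM in the Cxcr2-/- libraries. The groups were far apart relative to their spread. The log2 fold change was -0.73 (SE 0.09, 95% interval -0.94 to -0.53, edgeR adjusted p = 5.39e-05), a level 1.66-fold lower, and it lay between -0.85 and -0.70 over all 15 alternative settings. Its relative Btk, on chromosome X from 134542336 to 134583570 (minus strand), is best known from B cells and is also used by myeloid cells. Btk was at 101, 93.6, 99.8 and 105 CPM in the WT libraries and at 111, 107, 90.2 and 98.8 CPM in the Cxcr2-/- libraries. The groups overlapped, and the log2 fold change of 0.03 (95% interval -0.17 to 0.22, edgeR adjusted p = 0.833) turned negative with upper-quartile scaling. The difference between the Tec and the Btk fold change was not itself tested.

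Promoter sequence was found in RefSeq (GRCm38.p6) for 7 of the 9 members. The start of Tec and the start of Btk differ in base composition, and both are printed because Tec fell and Btk did not pass the test. The 300-base window around the Tec start held 67.7% G and C and 33 CG dinucleotides, and that of Btk 49.3% and 3. The median over 32851 windows of this length was 52.7% and 7. Among members called lower, the windows of Syk held 31 and 2 CG dinucleotides and those of Csk 24 and 9. Among members that did not pass, the number was 47 for Src, 11 for Fgr and 8 for Ptpn6. The called and the other members thus overlapped in this number. A link between base composition and fold change was not tested. Capitals mark CG dinucleotides in bases before the start, minus strand, 5′ to 3′. For Btk all 250 bases before the RefSeq start are printed, and for Tec 215 of them, since those nearest the start lie in an annotated exon and were left out.
Tec, chr5:72868484-72868698: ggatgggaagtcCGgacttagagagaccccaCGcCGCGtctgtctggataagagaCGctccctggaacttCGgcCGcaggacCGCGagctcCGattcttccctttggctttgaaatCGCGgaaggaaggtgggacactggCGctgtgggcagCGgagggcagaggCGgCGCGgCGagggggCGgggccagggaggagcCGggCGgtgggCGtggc
Btk, chrX:134583141-134583390: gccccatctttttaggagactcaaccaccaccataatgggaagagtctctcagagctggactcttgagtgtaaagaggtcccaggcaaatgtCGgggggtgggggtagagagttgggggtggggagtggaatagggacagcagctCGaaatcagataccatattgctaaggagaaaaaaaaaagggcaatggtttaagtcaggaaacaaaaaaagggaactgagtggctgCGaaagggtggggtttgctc
The motif GAGGAAGT, bound by the myeloid factor PU.1, was searched on both strands. It occurred in none of the 9 windows of the 7 members (Csk and Syk have more than one each), and with 3.20% of all windows holding it, a count of 0 among 9 carries no information about the members.

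The negative regulators were Csk and Ptpn6. Csk, on chromosome 9 from 57626646 to 57653631 (minus strand), was at 317, 232, 266 and 275 CPM in the WT libraries and at 257, 209, 208 and 194 CPM in the Cxcr2-/- libraries. The groups overlapped, since WT replicate 2 was below Cxcr2-/- replicate 1. On the log2 scale Csk differed by -0.33 (95% interval -0.59 to -0.07). The call was lost in 6 of 8 fits that left out 1 library (WT replicate 1, 3 or 4, or Cxcr2-/- replicate 2, 3 or 4), where the adjusted p by edgeR was 0.0542 to 0.123. Ptpn6, on chromosome 6 from 124720707 to 124738714 (minus strand), was at 676, 547, 570.2 and 688 CPM in the WT libraries and at 634, 535, 545 and 482 CPM in the Cxcr2-/- libraries. The log2 fold change of -0.18 (95% interval -0.43 to 0.08) did not pass (edgeR adjusted p = 0.245), while with upper-quartile scaling it was -0.30 (edgeR adjusted p = 0.0483). An antisense gene, Gm20531, shares 195 exon bases with Ptpn6.

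**Figure D2:**
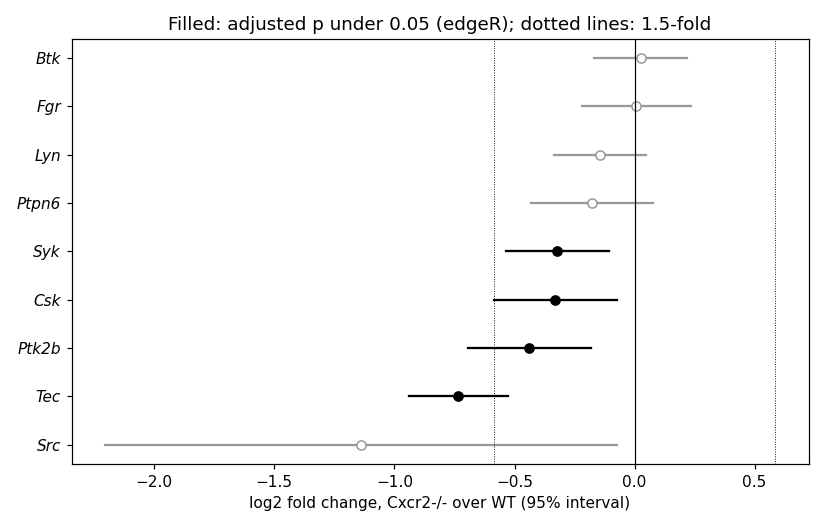
Log2 fold change of Cxcr2-/- over WT (horizontal axis) for the 9 genes, with 95% intervals from the edgeR fit. Filled points have an adjusted p under 0.05, and dotted lines mark a change of 1.5-fold. Tec (-0.73), Ptk2b (-0.44), Csk (-0.33) and Syk (-0.32) are filled, and the interval of Src, with 2 to 27 counts per library, is the widest.

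Whether kinases and negative regulators changed unequally was tested by the ratio of counts within each library, which needs no scaling. Of the 14 ratios of a kinase to Csk or to Ptpn6, 6 had the smallest p that an exact permutation test of 4 against 4 libraries can give (0.0286, two-sided), and none passed after adjustment over the 14 (adjusted p = 0.0667). The log2 ratio of Fgr to Csk lay between 1.68 and 1.89 in WT and between 2.05 and 2.16 in Cxcr2-/- libraries, without overlap, a difference of 0.34 (SE 0.05) that did not pass. Btk to Csk differed by 0.35, Fgr to Ptpn6 by 0.18, Tec to Csk by -0.41, Tec to Ptpn6 by -0.56 and Ptk2b to Ptpn6 by -0.27, also without overlap. For Syk to Csk the difference was 0.01 with an SE of 0.12 (exact permutation p = 0.971). A design of this size leaves little room for any of the 14 ratios to pass.

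**Figure D3:**
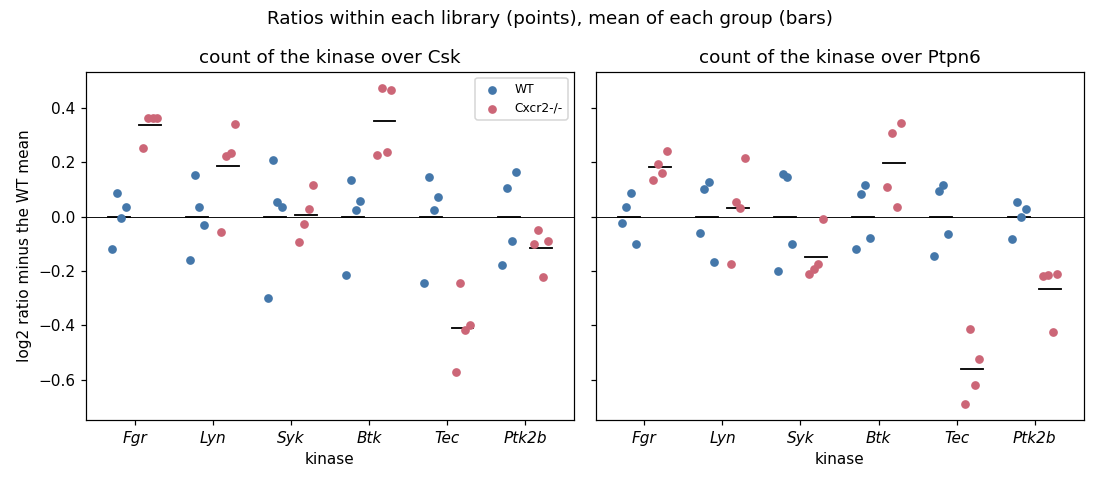
Log2 ratio of the counts of a kinase to those of Csk (left) or Ptpn6 (right) within each of the 8 libraries, minus the WT mean of that ratio (vertical axis). Points are libraries and bars are group means, and Src is left out of the plot for its few counts. Fgr and Btk lie above WT and Tec below WT in every Cxcr2-/- library on the left, and Fgr lies above and Tec and Ptk2b lie below on the right.

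The other genes of the pathway were counted as 4 lists, which hold 53 genes and do not cover every gene of the families, and 50 of them passed the filter on low counts. In Cxcr2-/- neutrophils 13 of the 50 were lower (26%) and 7 were higher (14%), against the 21% and 23.7% of all tested genes, and these shares hold for the genes listed, not for the families as a whole. The upstream adaptor Fcer1g, the signalling chain of Fc receptors, rose from 347 ± 47.4 to 453 ± 37.3 CPM, and Tyrobp (DAP12) was at 965 ± 185 and 856 ± 109 CPM without passing (edgeR adjusted p = 0.372).

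Among the 13 other nonreceptor tyrosine kinases listed and tested, 4 were lower (30.8%) and 1 was higher (7.69%), against 21% and 23.7% of all tested genes. Fer, a kinase of adhesion and cytokine signalling, rose from 12.2 ± 1.07 to 17.9 ± 1.16 CPM, without overlap (log2 fold change 0.56, edgeR adjusted p = 0.00107). The 4 that fell, Blk, Txk, Matk and Ptk2, were at a mean of no more than 5.98 CPM in WT. Matk, a relative of Csk, went from 5.98 ± 1.02 to 2.65 ± 0.971 CPM, and Blk, a Src family kinase of B cells, from 2.89 ± 1.02 to 1.08 ± 0.763 CPM. Blk did not pass without WT replicate 1 (edgeR adjusted p = 0.0638), and Ptk2 did not pass without WT replicate 2 (edgeR adjusted p = 0.0698), in which it was highest. In WT replicates 1 to 4 Ptk2 was at 2.10, 4.30, 1.28 and 0.405 CPM, the macrophage marker Vcam1 at 5.04, 22.2, 6.90 and 1.79 CPM, C1qa at 1.02, 5.79, 1.58 and 0.0578 CPM, and the T cell marker Cd4 at 5.17, 14.1, 4.12 and 1.27 CPM. All 4 genes were highest in WT replicate 2 and lowest in WT replicate 4. With the covariate for RNA of other cells, Ptk2 did not pass (log2 fold change -1.05, edgeR adjusted p = 0.182). The B cell markers fell along with Blk. With the same covariate Blk remained called (log2 fold change -0.98, edgeR adjusted p = 0.0213). That covariate pools markers of B cells with those of T cells, monocytes and macrophages, erythroid cells and platelets, and so cannot single out B cells. The part of B cells in the Blk result was not tested.

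Of the 19 substrates, adaptors and effectors tested, 5 were lower (26.3%) and 1 was higher (5.26%), against 21% and 23.7% of all tested genes. Their median log2 fold change was -0.04. The scaffold Gab2, which carries PI3-kinase and Ptpn11, fell from 166 ± 14.4 to 82.4 ± 9.01 CPM (log2 fold change -1.01, edgeR adjusted p = 9.01e-06). The adaptor Fyb (ADAP) fell from 427 ± 33.7 to 262 ± 12.2 CPM, and its partner Lcp2 (SLP-76), a substrate of Syk, from 429 ± 21.7 to 331 ± 16.8 CPM. The GTPase Rac2, part of the neutrophil oxidase and of actin control, rose from 1210 ± 168 to 1892 ± 257 CPM. Vav2 and Blnk, at 7.12 and 3.38 CPM in WT, also fell. Vav2 did not pass without WT replicate 2 (edgeR adjusted p = 0.0773) or Cxcr2-/- replicate 2 (edgeR adjusted p = 0.0539), nor with the covariate (log2 fold change -0.59, edgeR adjusted p = 0.152). Like Ptk2, it was highest in WT replicate 2 (12.8 CPM) and, among the WT libraries, lowest in WT replicate 4 (3.30 CPM), as were Vcam1, C1qa and Cd4. Blnk, the adaptor of B cells, did not pass in 4 fits that left out 1 library. These left out WT replicate 1 or 3, or Cxcr2-/- replicate 1 or 2, with adjusted p by edgeR up to 0.0670. The B cell markers fell along with Blnk. With the covariate, which cannot single out B cells, Blnk did not pass (log2 fold change -0.71, edgeR adjusted p = 0.0557). The part of B cells in the Blnk result was not tested. Plcg2, the phospholipase that Btk and Syk phosphorylate, did not pass the test and was at 378 ± 28.8 and 446 ± 69.0 CPM (edgeR adjusted p = 0.121), and neither did Vav1, the relative of Vav2, at 323 ± 22.9 and 352 ± 35.2 CPM (edgeR adjusted p = 0.342).

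The 16 phosphatases, ubiquitin ligases and inhibitory adaptors held 4 lower (25%) and 4 higher (25%) genes. These shares were near the 21% and 23.7% of all tested genes. The phosphatases that act on the Src family tail moved in opposite directions. Ptprc (CD45) fell from 4354 ± 218 to 2553 ± 227 CPM (log2 fold change -0.77, edgeR adjusted p = 1.42e-04), and Ptprj (CD148) rose from 191 ± 15.2 to 289 ± 51.9 CPM (log2 fold change 0.60, edgeR adjusted p = 0.00213). Neither gene overlapped between the groups. The log2 ratio of Csk to Ptprc counts, chosen after the values were seen and not tested, was -4.01 ± 0.17 in WT and -3.56 ± 0.25 in Cxcr2-/- neutrophils, higher in every Cxcr2-/- library than in any WT library.

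Ptpn22, a phosphatase that works with Csk in lymphocytes, fell from 67.6 ± 5.01 to 30.2 ± 5.26 CPM, and Ptpn11 (SHP-2), the relative of Ptpn6, rose from 54.2 ± 5.76 to 85.6 ± 13.1 CPM. Inpp5d (SHIP-1), the lipid phosphatase that removes the phosphate recognized by Tec kinases, fell by 0.41 on the log2 scale, and the Src-like adaptor Sla2 went from 4.15 ± 0.574 to 1.70 ± 0.190 CPM. The adaptor Dok2 rose from 21.2 ± 2.49 to 46.1 ± 6.26 CPM and Ubash3a from 5.67 ± 0.523 to 14.8 ± 1.29 CPM. Cbl, the ubiquitin ligase that marks active Syk and Src kinases, was at 686 ± 40.1 and 672 ± 54.7 CPM and did not pass (edgeR adjusted p = 0.826).

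**Figure D4:**
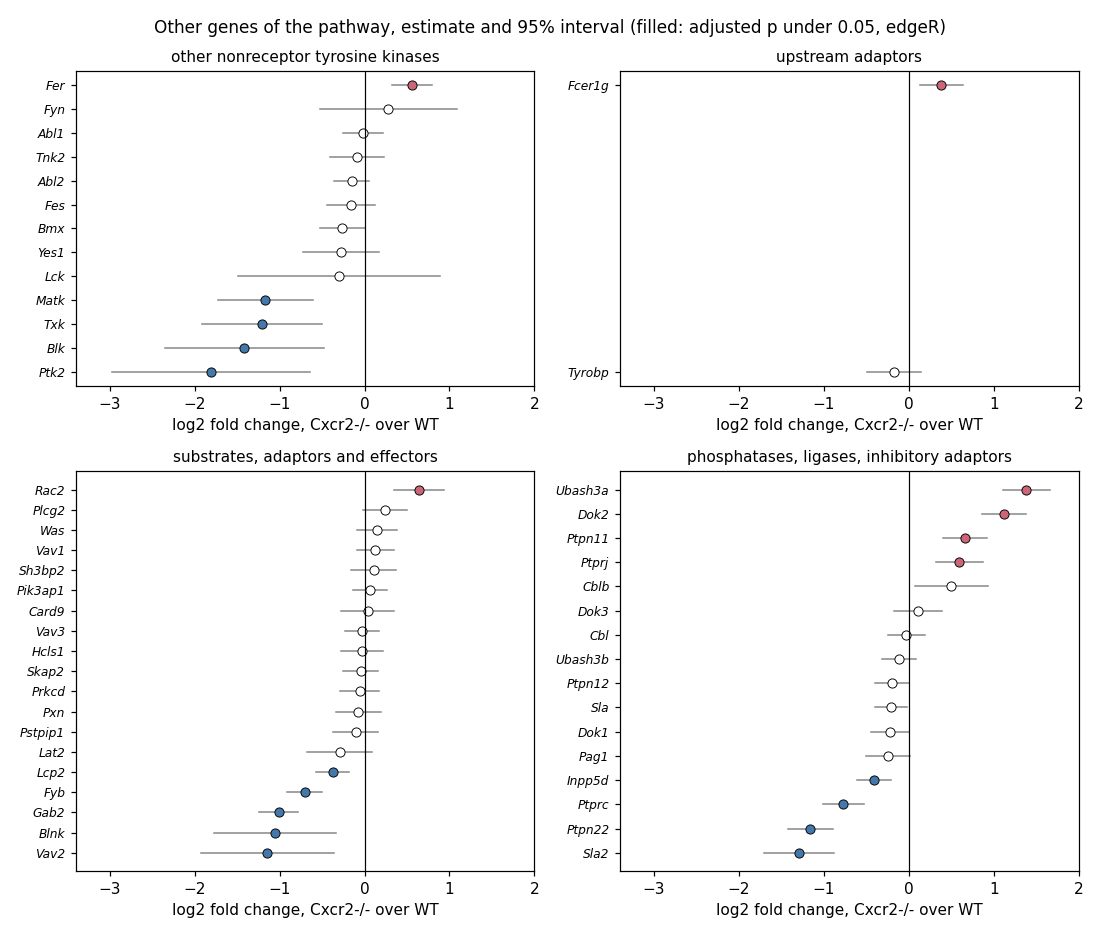
Log2 fold change of Cxcr2-/- over WT (horizontal axis) with 95% intervals for the 50 tested genes of the 4 pathway lists, one panel per list; filled points have an adjusted p under 0.05 by edgeR. Fer, at 0.56, stands at the top of the kinase panel, and Ptprc (-0.77) and Ptprj (0.60) lie on opposite sides of 0 in the phosphatase panel.

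The genes whose levels over the 8 libraries were closest to those of a member in shape were sought among 4226 candidate genes, by the Euclidean distance of log2 CPM profiles after subtraction of each gene's mean. For Src, the member with the largest absolute log2 fold change, they were Trib1 (distance 1.39), Tnfaip3 (1.39) and Per1 (1.47), distances that are wide because of the few Src counts. For Tec, taken after the values were seen, they were Ulk2 (0.169), Spidr (0.180) and Nlrp12 (0.181), whose log2 fold changes were -0.75, -0.70 and -0.77.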

How the data were processed

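Neutrophils of 4 WT and 4 Cxcr2-/- mice were sequenced, 1 library per mouse. Stranded, paired-end libraries were prepared by the authors after removal of ribosomal RNA, and reads were aligned to mm10 and assigned to genes with HTSeq. The deposited values are raw counts per gene. The strand setting and the annotation used for counting are not given in the sources used here, so reads of Lyn, Ptpn6 and overlapping antisense genes are uncertain. Gene IDs were matched without version to GENCODE M21, which left out 0.934 to 2.19% of counts per library. Rows without a gene (26.7 to 41.5% of each library met no feature) stayed out of all library sizes and tests. The total counts of 34220182 to 46233555 per library give 2 to 27 counts for Src and far more for the other members.

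Groups came from the sample labels. Counts were filtered with filterByExpr, scaled by TMM and tested with edgeR 4.0.16 (glmQLFit and glmQLFTest, R 4.3.3) in all 8 libraries, with Benjamini-Hochberg adjustment over 16778 genes. The biological coefficient of variation was 0.202. DESeq2 1.42.0, other scalings, other filters, a replicate block, a covariate for RNA of other cells and each left-out library were alternatives. In counts simulated from this comparison (16483 genes, 200 changed), edgeR recovered 100% of 4-fold and 83% of 2-fold changes. The simulation gave all genes the same dispersion. The called members changed by less than 2-fold, so the recovery does not cover changes of their size. RPKM used the union of exons of M21. Ratios were tested by exact permutation. All members are named, and other pathway genes were named when called with at least 1.5-fold, and a few more were named after their values were seen for contrast. Some results on other genes of these families are not reported here. The members and lists were chosen with earlier results of these data known.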

Additional observations from a re-analysis of the deposited data

How the results depend on the processing

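Tec and Ptk2b were lower, with adjusted p under 0.05, under all 15 alternatives (7 settings and 8 left-out libraries), Syk in all but 2 and Csk in all but 6 of the left-out libraries. The number of members called lower was 4 under every setting except upper-quartile scaling, which gave 6 by adding Lyn and Ptpn6, and it ranged from 2 to 4 with 1 library left out, being 2 without WT replicate 4 and without Cxcr2-/- replicate 2, where Syk and Csk did not pass. No alternative called a member higher. Upper-quartile scaling moved the median log2 fold change of all genes by -0.12 and the share of calls that were higher from 53.0% to 41.2%. The sign of Fgr, which never passed, turned with relative log expression (-0.015), upper-quartile scaling (-0.11), DESeq2 (-0.015), no filter (-0.0083), a minimum of 10 counts in every library (-0.031) and the covariate (-0.047), and ranged from -0.060 to 0.048 with 1 library left out. That of Btk turned with upper-quartile scaling (-0.093), the minimum of 10 counts (-0.011) and the covariate (-0.051), and ranged from -0.026 to 0.069 with 1 library left out. Src was not tested under the minimum of 10 counts. Of the 16 other pathway genes at 1.5-fold or more, 11 were called under every alternative, and Blk, Blnk, Txk, Ptk2 and Vav2 were not. With the covariate for RNA of other cells, adjusted p by edgeR was 0.0516 for Txk, 0.182 for Ptk2, 0.152 for Vav2 and 0.0557 for Blnk. The causes were not tested. Replicate numbers did not pair the samples, which are different mice. After each gene's group mean of log2 CPM was subtracted, the remaining deviations of same-numbered samples correlated at 0.15, -0.19, 0.24 and -0.31. With the number as a replicate block 4 members were lower (log2 fold change -0.74 for Tec, -0.44 for Ptk2b, -0.33 for Csk and -0.32 for Syk), while Ptk2 and Vav2 lost the call. The depth limits Src, with 2 to 27 counts per library.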
